A study of Rattus norvegicus with 2 samples.

Results

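Gfap, Aqp4, S100b, Aldh1l1, Sox9, Slc4a4, Hes5, Vim, Nes and Rax are markers of astrocytes and tanycytes, and their messenger RNA was compared between the hypothalamus of female and male rats. The 10 genes were taken by name, as all non-control array spots whose gene name was one of the 10. This gave 17 probes on 44 spots, out of 30367 probes on 42877 non-control spots for 26353 genes or other targets. The samples were a female pool and a male pool, each made of whole-hypothalamus RNA from 5 rats of the Wistar Kyoto (WKY) strain, 9 weeks old. Each rat gave 100 ng of RNA to its pool, and each pool was hybridised to 1 single-colour Agilent array. With 1 array per sex the differences have no replicate check and no test, and a difference between the sexes cannot be told apart from a difference between 5 rats and 5 other rats. The stage of the estrous cycle of the females was not given in the sources used here.

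Astrocytes are the glial cells that wrap synapses and blood vessels and regulate water, ions and transmitters in the brain. Tanycytes are elongated glial cells that line the floor and lower walls of the third ventricle in the hypothalamus, where they send long processes to blood vessels and to nuclei that control feeding and reproduction, and they keep features of radial glia. Gfap, Vim and Nes encode intermediate filament proteins, Aqp4 a water channel of astrocyte endfeet, Slc4a4 a sodium bicarbonate cotransporter, Aldh1l1 a folate enzyme and S100b a calcium-binding protein. Sox9, Hes5 and Rax encode transcription factors: Sox9 is tied to glial fate, Hes5 is a target of Notch signalling, and Rax is needed for the retina and hypothalamus to form and in adult rodents marks tanycytes.

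The probes are 60 bases long, and what a value measures depends on where its probe lies. Sequences and positions are those of the deposited files, build rn4, with the position of the first base in the transcript as the files give it. The probes of Gfap and Vim, which carry the best measured differences below, are shown first. Some probes are given whole and the others by their first 30 bases; the place of the probes in coding or untranslated sequence was not looked up.
Gfap, chr10:92060835-92060894, minus strand, transcript base 1674, first 30 bases: agcaagacaaacattcagacagaaaggaaa
Vim, chr17:87851390-87851449, plus strand, transcript base 711: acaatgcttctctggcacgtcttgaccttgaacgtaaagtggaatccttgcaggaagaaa

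Aqp4 is shown because its 3 probes, far apart on the minus strand of 1 transcript, gave different answers. The probe nearest the 3′ end has a stop codon in each of its reading frames (0 of its frames were open).
Aqp4, chr18:6630285-6630344, transcript base 986, first 30 bases: gaccgtggagacgagaagaaggggaaggac
Aqp4, chr18:6629662-6629721, transcript base 1609, first 30 bases: attcactataatccttcttccccctcagca
Aqp4, chr18:6626431-6626490, transcript base 4840, first 30 bases: atcacccagatcacgataaacctgcaactt

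Sox9, Slc4a4 and Hes5 are shown because they passed the 1.2-fold line used below. The first Sox9 probe begins at the ATG start codon, in capitals, and Sox9 and Hes5 lie on the plus strand and Slc4a4 on the minus strand. The second Slc4a4 probe, at transcript base 3513, also had 0 open reading frames.
Sox9, chr10:102387042-102387101, transcript base 313: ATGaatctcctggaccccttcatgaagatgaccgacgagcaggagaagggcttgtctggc
Sox9, chr10:102388891-102388950, transcript base 1508: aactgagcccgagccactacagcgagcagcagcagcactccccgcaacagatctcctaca
Slc4a4, chr14:20384818-20384877, transcript base 3187: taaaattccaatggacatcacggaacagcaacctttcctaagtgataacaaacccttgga
Slc4a4, chr14:20381545-20381604, transcript base 3513, first 30 bases: tttgtttggtcactgactgaataatacagt
Hes5, chr5:171764166-171764225, transcript base 211: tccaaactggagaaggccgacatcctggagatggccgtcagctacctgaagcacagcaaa

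Rax had a pair of probes on the plus strand that share 49 bases of the transcript and differ there by 1 substitution. Counted from the first probe's 5′ end it is G15A, with the first probe's base first, and the base is in capitals.
Rax, chr18:62570715-62570774, transcript base 552: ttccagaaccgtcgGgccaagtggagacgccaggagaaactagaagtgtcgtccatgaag
Rax, chr18:62570726-62570785, transcript base 563: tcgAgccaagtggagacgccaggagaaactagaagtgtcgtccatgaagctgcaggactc

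The level of a spot is log2 of its processed fluorescence signal minus log2 of the 75th percentile of that signal on its array, so that 0 is the 75th percentile. That percentile was 2943 signal units in the female pool, against 3769 in the male pool, and the share of spots well above background was 84.2% on the female array, against 84.9% on the male array. Both arrays lay on 1 slide and came from 1 scan, per the file headers. Differences are female minus male on the log2 scale. Over the 20677 measured genes they had a median of 0.00017 and a robust SD of 0.14, and 86.9% lay within 1.2-fold. In bulk RNA, fewer cells of a type and less RNA per cell cannot be told apart.

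The 10 markers did not lie on one side. In the female pool Slc4a4 and Sox9 were higher by 1.2-fold or more, which is 2 of 10, while 8.60% of all measured genes were. Hes5 and Rax were lower by 1.2-fold or more, again 2 of 10, while 4.52% of all measured genes were. With 10 genes these shares rest on 2 genes a side. The 1.2-fold line was chosen with earlier results known, at about the size of the larger marker differences. The marker counts are therefore not independent of the line, and their excess over all genes is no test. Scaled on spike-in controls instead, 6.05% of all genes were past the line on the higher side and 7.53% on the lower side, which left 1 higher marker and 3 lower ones: Sox9, at 0.22, no longer passed the line, and Gfap, at -0.31, did. Of the others, 3 differences were above 0 and 3 below, and the median of the 10 was 0.015. As a mean over measured probes, none of the 10 reached 1.5-fold, which 2.40% of all measured genes did. By that mean Slc4a4 differed most of the 10, at 1.27-fold.

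**Figure D1:**
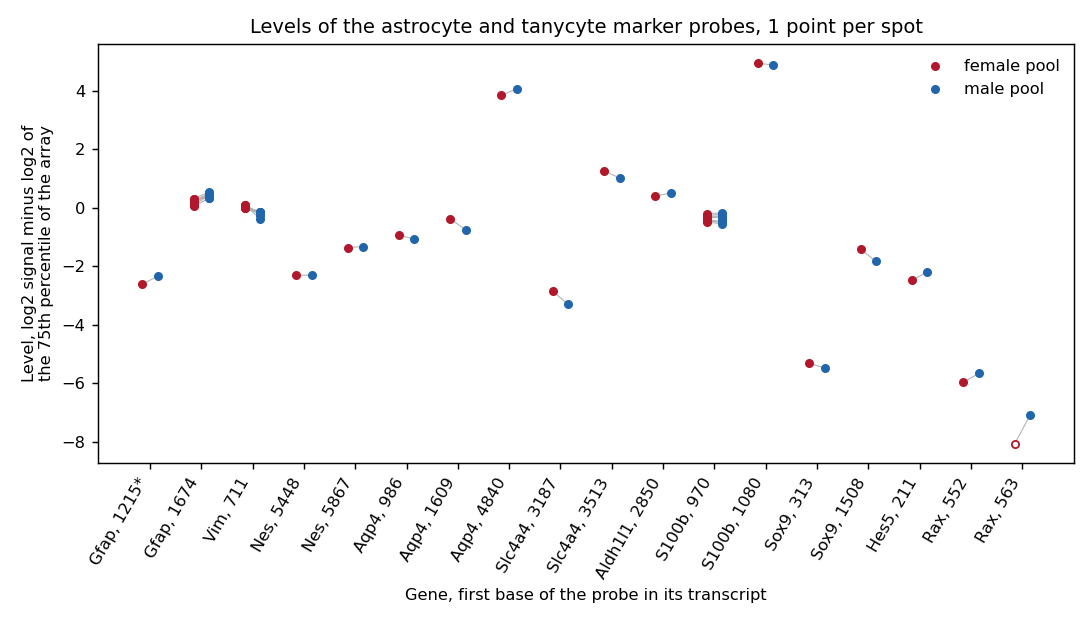
Level (log2 signal minus log2 of the array's 75th percentile) of every spot of the 10 markers, with red points for the female pool left of blue points for the male pool and a grey line joining the same spot on both arrays. Each name is followed by the first transcript base of the probe; the open circle is a spot not well above background, and the asterisk marks a Gfap probe named only by its description. The 10 Gfap spots sit lower and the 10 Vim spots higher in the female pool; levels of different probes cannot be set against each other.

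Gfap and Vim, the filament genes of astrocytes and of tanycytes and other radial glia-like cells, differed by a like amount in opposite directions. Each has a probe spotted 10 times over the slide, so spot error can be seen directly. The Gfap spots read 3068 to 3654 signal units in the female pool, against 4718 to 5453 in the male pool. The Gfap level was 0.060 at the lowest spot, 0.20 at the median and 0.31 at the highest in the female pool, against 0.32, 0.46 and 0.53 in the male pool. The female spots were all below the male spots, with no overlap. Of 1312 repeated probes, 2.44% showed this pattern. The difference was -0.24 ± 0.073 (SD, 10 spots), or 1.18-fold lower in the female pool, and it ranged from -0.31 to -0.054 between spots. Of all measured genes, 85.0% differed by less.

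A further probe, at transcript base 1215 on chr10:92063092-92063151, is filed under a transcript identifier and named Gfap only in its description, so the gene name rule did not take it. Its 1 spot read 482 signal units in the female pool, against 745 in the male pool. Its difference was -0.27, in the same direction as the repeated probe. With it Gfap stood at -0.26.

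Vim went the other way. Its level was -0.0066 at the lowest spot, 0.043 at the median and 0.085 at the highest in the female pool, against -0.37, -0.18 and -0.13 in the male pool. Every one of the 10 spots was higher in the female pool and the groups of spots did not overlap, a pattern seen in 6.33% of the 1312 repeated probes. The difference was 0.24 ± 0.084 (SD, 10 spots), 1.18-fold, ranging from 0.16 to 0.45 between spots, and 85.1% of measured genes had a smaller one. The Vim spots read 2930 to 3122 signal units in the female pool, against 2917 to 3446 in the male pool. The female array was dimmer as a whole, so unscaled signals are not compared between the pools. Under the 16 other processing settings Vim lay between 0.18 and 0.25 and Gfap between -0.31 and -0.20. The Gfap value of -0.20 came from normexp on all spots, where the median of all genes was -0.55. Relative to that median Gfap stood at 0.35 and Vim at 0.78.

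**Figure D2:**
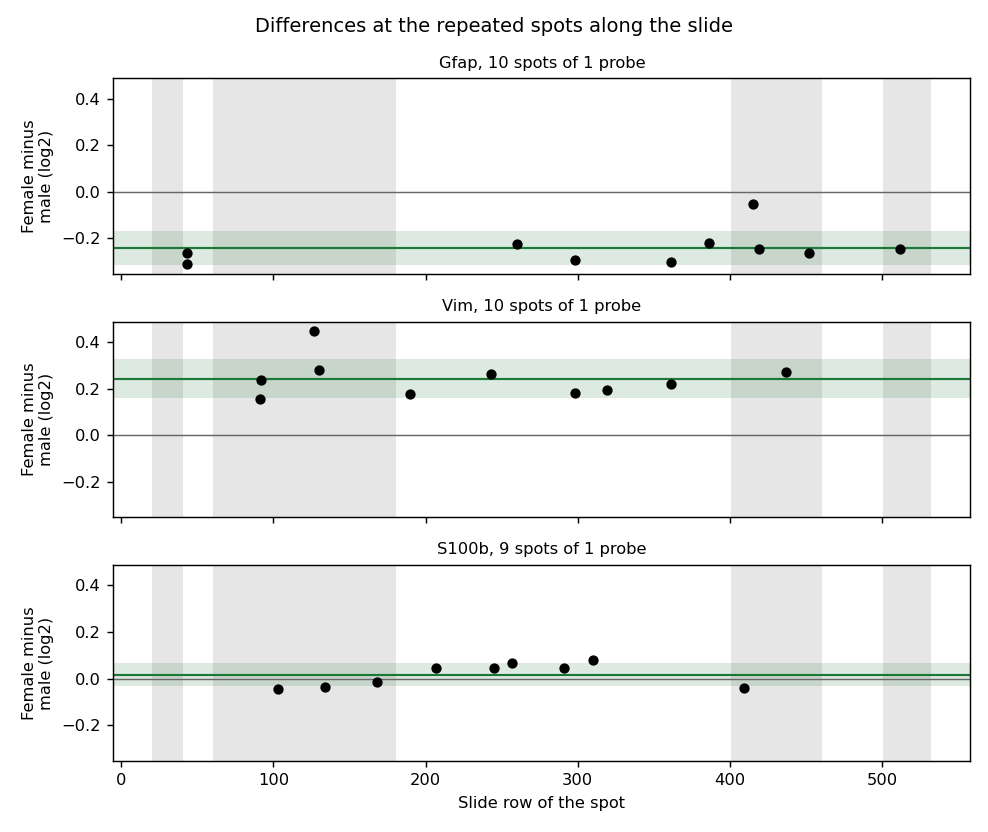
Difference between the pools (female minus male, log2) at each spot of the repeated probes of Gfap, Vim and S100b, against the row of the spot on the slide; the green line is the mean and the green band 1 SD over spots. Grey bands are the slide rows where repeated spots often departed from their own probe's median. All 10 Gfap points lie below 0, all 10 Vim points above 0, and the S100b points on both sides.

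Nes, which encodes the filament protein of neural progenitors and is kept by tanycytes, did not differ beyond spot error. Its probe at base 5448 read 597 signal units in the female pool, against 763 in the male pool, a difference of 0.0034 after scaling. Its probe at base 5867 read 1148 units in the female pool, against 1507 in the male pool, a difference of -0.036. The mean of both was -0.016, and the technical SD of such a mean was 0.048. Both Nes probes thus lay near 0.

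S100b was measured as closely as Gfap and Vim and showed no such separation. At the 9 usable spots of its repeated probe the level ran from -0.48 to -0.20 in the female pool, against -0.55 to -0.17 in the male pool. The spots overlapped, with 5 higher and 4 lower in the female pool, and the difference was 0.017 ± 0.050 (SD, 9 spots). The 4 lower spots were those in slide rows with frequent departures, described below, and the 5 spots outside them averaged 0.058. Its other probe read 90765 signal units in the female pool, against 110344 in the male pool, a difference of 0.075. Aldh1l1, the enzyme gene often used to label astrocytes as a class, rested on 1 spot, with 3878 signal units in the female pool, against 5359 in the male pool. Its difference was -0.11, where the technical SD of 1 spot at that level was 0.061, and 57.7% of genes had a smaller difference. The Aldh1l1 spot lay in a slide row with frequent departures, described below.

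The transport genes differed in how well their probes agreed. For Slc4a4, which carries bicarbonate across the astrocyte membrane, both probes were higher in the female pool. The probe at base 3187 read 407 signal units in the female pool, against 382 in the male pool, a difference of 0.45 where the technical SD of so dim a spot was 0.16. The probe at base 3513 read 7083 units in the female pool, against 7623 in the male pool, a difference of 0.25. Their mean was 0.35 with a technical SD of 0.084, and 92.1% of measured genes differed less. Under normexp on all spots, which shifted all genes as given below, Slc4a4 turned to -0.13.

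For Aqp4 the probes contradicted each other. The probe at base 986 read 1540 signal units in the female pool, against 1798 in the male pool, a difference of 0.13. The probe at base 1609 read 2277 units in the female pool, against 2234 in the male pool, a difference of 0.38. The bright probe at base 4840 read 42333 units in the female pool, against 63180 in the male pool, a difference of -0.22. The gene mean of 0.099 therefore stands for no single probe, and no direction is given for Aqp4. The probes spanned 0.61 on the log2 scale, more than in 96.9% of the 2391 genes with at least 2 measured probes, whose median span was 0.12. The last Aqp4 probe minus the first was -0.35, where the same quantity had a median of -0.042 over 1875 transcripts with probes at least 300 bases apart. For the other markers with more than 1 measured probe it was 0.23 in Sox9, -0.20 in Slc4a4, 0.058 in S100b and -0.039 in Nes, so their probes did not all shift one way towards the 3′ end.

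Among the transcription factor genes, Sox9 was higher in the female pool on both probes. The probe at base 313, which starts at the start codon, read 74.2 signal units in the female pool, against 84.5 in the male pool, a difference of 0.17 where the technical SD of so dim a spot was 0.16. The probe at base 1508 read 1099 units in the female pool, against 1064 in the male pool, a difference of 0.40. The mean was 0.29 with a technical SD of 0.087, or 1.22-fold. Under the same normexp setting Sox9 turned to -0.89. The larger part of it came from the second probe, whose spot lay in a slide row with frequent departures.

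Hes5, which relays Notch signals in neural progenitors and astrocytes, was lower in the female pool. Its 1 spot read 532 signal units in the female pool, against 821 in the male pool. The difference was -0.27, 1.21-fold lower, where the technical SD of 1 spot at that level was 0.068. The spot lay outside the slide rows with frequent departures, and 87.4% of genes differed less. Hes5 stood just short of the 1.2-fold line, at -0.26, with the percentile taken over spots well above background, and at -0.25 under normexp fitted without spots of very bright background.

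Rax was near the limit of detection. Its first probe read 47.2 signal units in the female pool, against 74.7 in the male pool, a difference of -0.31 with a technical SD of 0.16. Its second probe read 27.7 units in the male pool and was not well above background in the female pool, where it read 11.0 units. The levels of that probe were -8.06 in the female pool, not counted as measured, against -7.09 in the male pool. The male level was 1.55-fold above the lowest level well above background of any spot on the female array. That lowest level is not a detection limit for this spot, and spot error is left out of the fold. Both overlapping probes were thus lower in the female pool, but they cover nearly the same stretch of 1 transcript, and the spot of the first lay in a slide row with frequent departures. Under normexp fitted without spots of very bright background, Rax turned to 0.038.

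Position on the slide bears on these values. In 12 of 27 bins of 20 slide rows, over 2% of repeated spots departed by over 4 robust SD from their own probe's median difference, and these bins held 43.5% of non-control spots. Departures were 4.71% of repeated spots inside them and 0.804% outside. They held 4 of the 10 Gfap spots, 5 of the 10 Vim spots, 4 of the 9 S100b spots of the repeated probe, 1 of 3 Aqp4 spots (base 1609), 1 of 2 Sox9 spots (base 1508), 1 of 2 Nes spots, the Aldh1l1 spot and the measured Rax spot. Outside them Gfap differed by -0.27 over 6 spots and Vim by 0.21 over 5 spots, so both kept their direction. Neither Slc4a4 spot nor the Hes5 spot lay in them. These bins were judged within groups of level, a rule chosen after seeing the data. By the planned rule, with 1 pooled SD, 21 of 27 bins were flagged. Those held both Slc4a4 spots but not the Hes5 spot, so Slc4a4 had no value without them. Without the 12 bins judged by level Sox9 was left with 0.17, under the 1.2-fold line, and Aqp4 with -0.044.

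**Figure D3:**
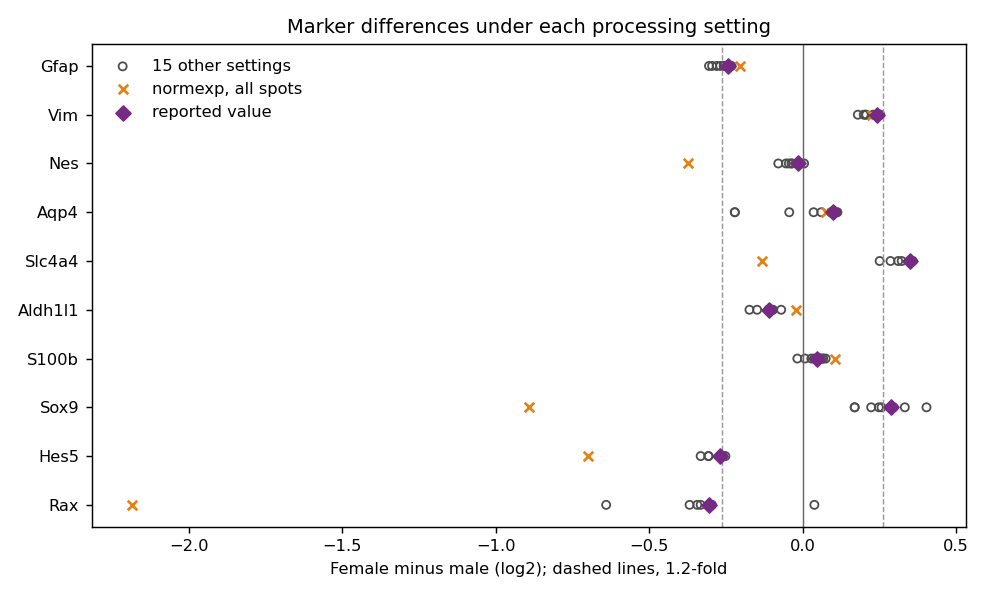
Difference of each marker (female minus male, log2) as reported (diamond), under normexp background correction fitted on all spots (cross) and under 15 other settings of the processing (circles); dashed lines mark 1.2-fold either way. Gfap, Vim, Aldh1l1 and Hes5 keep their sign under every setting that measured them, while Sox9, Slc4a4, Nes and Rax each cross 0 under 1 form of normexp, and Aqp4 and S100b cross it under other settings. Some settings cannot change a gene with 1 probe or 1 spot. Values are not set against the median of all genes, which was -0.55 under normexp on all spots.

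The wider programmes of the same cells were spread around 0 as well. The counts past 1.2-fold of the lists below stand beside 8.60% higher and 4.52% lower over all measured genes. Of 38 further astrocyte genes 36 were measured, of which 2 were higher by 1.2-fold or more and 1 lower, and the median difference was -0.013, with 15 genes above 0 and 21 below. The higher ones were Gjb2, a connexin gene that meningeal cells also express, at 1.51-fold over 10 spots, and Kcnj10, the astrocyte potassium channel gene, at 1.23-fold on 1 dim spot in a slide row with frequent departures. The lower one was Fabp7, a fatty acid-binding protein gene of radial glia and astrocytes, at 1.21-fold lower. Gjb6, the connexin 30 gene, differed by 0.24 over 10 spots. The astrocyte genes thus lay on both sides of 0.

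Of 27 further tanycyte genes 25 were measured, with 4 higher, 0 lower and a median of 0.058. The higher ones were Six6 at 1.61-fold, the collagen gene Col25a1 at 1.46-fold, the Wnt pathway activator Rspo3 at 1.28-fold and Six3 at 1.21-fold. Each of these 4 rested on 1 dim spot, where the technical SD was 0.16. Six6 and Six3 are homeobox genes of the hypothalamus and eye field, as Rax is, and they lay on the opposite side of it. The spots of Six6, Rspo3 and Six3 lay in slide rows with frequent departures, that of Col25a1 did not. Ependymal genes, of the ciliated cells next to tanycytes on the ventricle wall, had 1 of 14 higher and 0 lower, with a median of 0.011. The higher one was the ciliary dynein gene Dnah5, at 1.54-fold from 1 dim spot in those rows.

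Of 14 other intermediate filament genes, 3 were higher and 0 lower, with a median of 0.045. They were the neuronal filament gene Ina at 1.34-fold, in a row with frequent departures, the lamin gene Lmnb2 at 1.30-fold and the muscle filament gene Des at 1.25-fold. The spots of Lmnb2 and Des were dim. Synm, whose product assembles with vimentin and GFAP, differed by -0.20, with its probes at -0.39 and -0.0043. Of 23 genes of the Notch pathway around Hes5, 0 were higher and 1 was lower, with a median of -0.034. That gene was the receptor Notch3, known from mural cells of vessels, at 1.39-fold lower on a dim spot in a row with frequent departures. The Hes5 relative Hes1 differed by -0.23, on the same side as Hes5, and the ligand Dll1 by 0.26.

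Of 22 measured genes for endfeet and for water and ion transport, 3 were higher, 0 lower and the median was -0.0053. Next to Slc4a4 stood the bicarbonate transporter genes Slc4a7 at 1.38-fold, on a dim spot in a row with frequent departures, and Slc4a8 at 1.22-fold. The third was Kcnj10. The related genes Slc4a10, at -0.029, and Slc4a5, of the choroid plexus list, at -0.17, did not lie on that side, Slc4a10 being added after its value was seen. The calcium channel gene Trpv4 differed by 0.21. Of 22 measured genes of reactive astrocytes, 4 were higher and 1 was lower, with a median of 0.054. Emp1, an epithelial membrane protein gene, was 1.46-fold higher, and the ceruloplasmin gene Cp and the transglutaminase gene Tgm1 were each 1.28-fold higher. Emp1 and Tgm1 each rested on 1 dim spot, where the technical SD was 0.16. Serpina3n, a protease inhibitor gene commonly used as a marker of reactive astrocytes, was 1.53-fold lower, also on a dim spot, in a row with frequent departures. The reactive genes thus lay on both sides of 0, as Vim and Gfap did.

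Markers of other cells that the dissected block could hold lay in part on the same side as Vim. The 13 meningeal fibroblast genes all lay above 0, 12 of them past 1.2-fold, and their median difference was 1.03. The list was chosen with earlier results of these data known, so its counts are no independent check. The median was 0.86 without the slide rows described above, 0.66 without the rows judged by a pooled SD, and 0.011 under normexp background correction on all spots, which moved the median of all genes to -0.55. Their levels ran from -5.57 to 2.16 in the female pool, against -6.15 to 1.13 in the male pool, and all 13 were well above background on both arrays. Of the choroid plexus genes 4 of 11 were higher and 0 lower by 1.2-fold or more, with a median of 0.15. The median of this list was -1.41 under normexp on all spots. The transthyretin gene Ttr was among the 4 higher ones, at 1.98-fold on 1 spot in a row with frequent departures. Counted by sign alone, 7 of the 11 lay above 0 and 4 below, the lowest being Slc4a5 at -0.17. Fibroblasts and vessel cells also express Vim, and meningeal cells Gjb2. The part of these cells in the Vim difference was not tested.

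The list medians of other cell types stood closer to 0. Of all measured genes, 8.60% were higher and 4.52% lower by 1.2-fold or more. Neuron genes had 1 of 13 higher and 0 lower, with a median of 0.042, and oligodendrocyte genes had 0 of 14 either way, with a median of -0.032. Precursors of oligodendrocytes had 0 of 8 either way and a median of -0.014. Microglia had 3 of 13 higher and 1 lower, with a median of 0.034, and endothelial and mural genes 2 of 14 higher and 0 lower, with a median of -0.0076. All 15 hypothalamic neuropeptide and transcription factor genes were measured in both pools, with 2 higher, 4 lower and a median of -0.077. The higher ones were Kiss1 at 2.32-fold, on 1 dim spot in a row with frequent departures, and Crh at 1.33-fold. Among the lower ones were Ghrh at 1.28-fold and Agrp at 1.23-fold lower, each on 1 spot in a row with frequent departures. This list thus went both ways. Its median was 0.091 without the rows judged by level and 0.065 without those judged by a pooled SD. Under normexp fitted without spots of very bright background it was 0.10. Of the 14 genes of other brain regions 9 were measured and 0 differed by 1.2-fold.

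**Figure D4:**
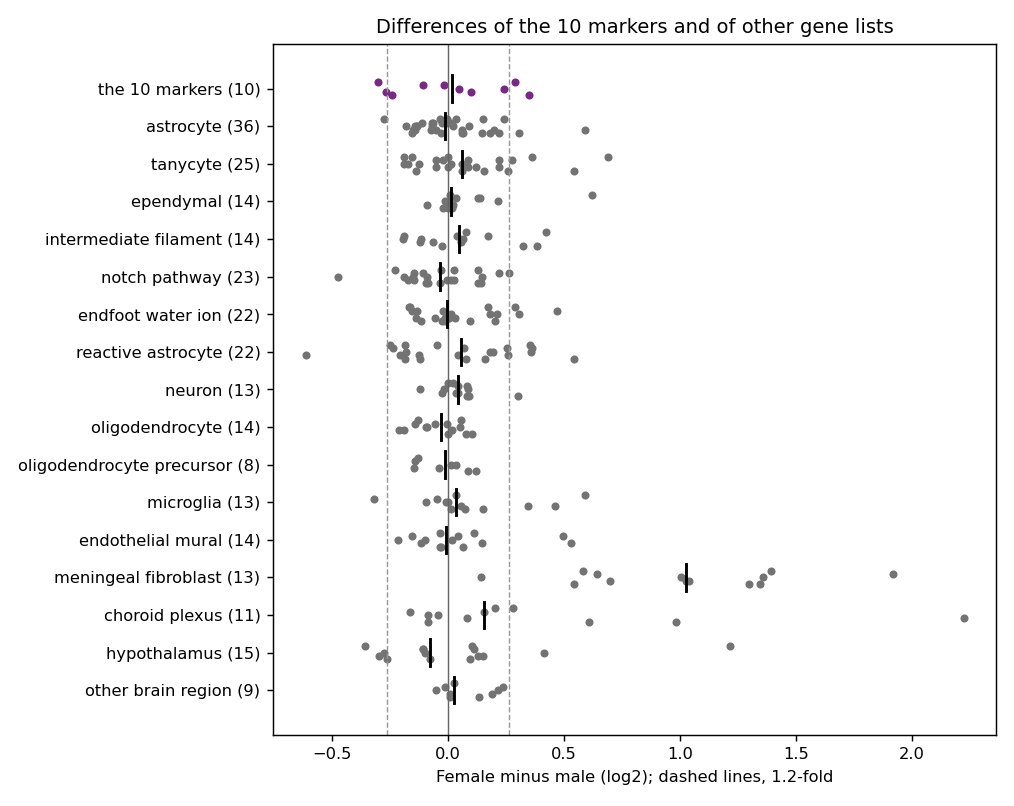
Difference (female minus male, log2) of each measured gene of the 10 markers (purple) and of the other lists (grey), 1 point per gene, with the list median as a black bar and the number of genes in brackets; dashed lines mark 1.2-fold either way. The markers lie on both sides of 0, and the meningeal fibroblast list is the one whose genes all lie above 0.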

How the data were processed

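The authors deposited the scanner output of both arrays and a table of values. The deposited intensity used here had been background-subtracted and spatially detrended by Agilent Feature Extraction 10.7.3.1, per the file headers. The submitters' processing notes name version 9.1, and which of them made the values is not settled. The deposited value table held the same intensity divided by the array's 75th percentile and multiplied by 100 (median 29.5 for the female array, 29.0 for the male array). It is linear and not centred.

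Levels were log2 processed intensities minus log2 of the 75th percentile. Outlier flags (292 on the female array, 286 on the male array) removed a spot from both arrays, and 0 spots were saturated. A measured probe had more than 50% of spots well above background, on each array. A gene was the mean of its measured probes. A difference was counted from 1.2-fold. The technical SD came from the spread between spots of 1312 probes spotted at least 5 times, in 4 groups of level, and was 0.16, 0.068, 0.061 and 0.054 from dim to bright. It covers spot error only, not the spread between rats, and the single array per pool limits the precision. Gene names came from RefSeq accessions in a table of the assembly GRCr8, used for names only, which matched 18758 of 30367 probes. The 10 markers had the same name in the files. No test was made. Of every other list the gene with the largest difference in each direction, and up to 4 by size, were eligible to be named. Some eligible genes are not reported here. The markers, lists and the 1.2-fold line were chosen with earlier results of these data known. The scripts used Python 3.11.15, pandas 2.3.3, numpy 2.4.6 and, for normexp, limma 3.58.1 in R 4.3.3, and the fold calls were tested on simulated data. Of the 16 alternative settings, 3 were chosen after seeing the data: the added Gfap probe, slide rows judged within groups of level, and normexp without spots of very bright background.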

Additional observations from a re-analysis of the deposited data

How the results depend on the processing

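No paired analysis was possible because each sex had 1 array. Before any shift of all genes is taken out, Gfap, Vim and Hes5 kept their sign under 16 of 16 settings and Aldh1l1 under all 14 that measured it. S100b did so under 15 of 16 and Aqp4 under 13 of 16. The brightest probe per gene cannot change a gene with 1 probe, and the median over spots cannot change a gene with 1 spot. The sign counts thus include settings that could not alter Gfap, Vim, Hes5 or Aldh1l1. The count of markers at least 1.2-fold higher was 1 in place of 2 under median scaling, quantile normalization, spike-in scaling, the brightest probe per gene and without the slide rows judged by level, where 8 markers were measured. It was 0 without the slide rows judged by the pooled SD, which hold 77.2% of spots and left 6 markers. The count of lower markers was 1 in place of 2 when the 75th percentile was taken over spots well above background, as Hes5 missed the line, and 3 under median and spike-in scaling, as Gfap passed it at -0.28 and -0.31. Normexp fitted on all spots moved the median of all genes to -0.55 and gave 0 higher and 4 lower markers and a median marker difference of -0.17, with Sox9 at -0.89 and Slc4a4 at -0.13. In that setting 2.72% of all genes were higher and 61.0% lower by 1.2-fold. Relative to the all-gene median of -0.55, Sox9 stood at -0.34 and Slc4a4 at 0.42. On that measure Gfap, at 0.35, and Aldh1l1, at 0.53, turned above 0, while Vim stood at 0.78 and Hes5 at -0.15. A fit without the 2 spots whose local background exceeded 1000 gave a median of 0.050 over all genes, 0 lower markers and Rax at 0.038. Sox9 stood at 0.33 and Slc4a4 at 0.35 in that fit. Spike-in scaling put 6.05% of genes higher and 7.53% lower by 1.2-fold, where the reported scaling put 8.60% higher and 4.52% lower. The corresponding shares were 6.97% and 6.03% under median scaling and 7.47% and 5.55% under quantile normalization. Under spike-in scaling the list medians were below 0 for all lists but meningeal fibroblasts and choroid plexus. Without the filter on dim probes Rax stood at -0.64. Dim signal limits Rax and the first Sox9 probe most.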
